A study of Mus musculus with 57 samples.

Results

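The genes described are 10 of the 56860 genes listed in the count tables, chosen by name: the growth factor Vegfa, its receptors Kdr and Flt1 and co-receptor Nrp1, the endothelial surface genes Cdh5, Pecam1 and Emcn, the ligand Apln with its receptor Aplnr, and Car4. They were followed in 57 bulk RNA-seq libraries of polyA-selected RNA from mouse embryos of the 129/Sv background. Wild-type (wt) embryos were compared with Hoxa5-/- embryos, homozygous for the null allele Hoxa5tm1Rob in which a neomycin cassette interrupts the homeobox. Embryos of E15.5 (E, embryonic day) gave trachea, lung and diaphragm, those of E12.5 gave lung and somites of the axial levels C3 to T2, those of E10.5 the same somites, and those of E18.5 brown fat from between the shoulder blades (iBAT). Each genotype had 4 libraries per context, except somites at E10.5 with 4 wt and 3 Hoxa5-/- libraries and iBAT with 5 of each. The allele is carried by all cells of the embryo, the methods describe the libraries of a group as biological replicates, and the somite samples are pieces of trunk without neural tube, forelimb or thoracic organ. Libraries of trachea, lung and diaphragm (32 libraries, 100-base single-end reads) and of somites and iBAT (25 libraries, 150-base paired-end reads) came from different sequencing centres, so that tissue and centre cannot be told apart between these sets and no test crosses them. The libraries held from 18369905 to 72991481 counted reads, with a median of 26953494.

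Blood vessels are lined by endothelial cells, whose growth is driven by VEGF-A. Tissue cells, often epithelium, secrete it, and it signals through the kinase receptor encoded by Kdr, while the product of Flt1 binds the ligand tightly with weak signalling and acts largely as a trap, and neuropilin (Nrp1) helps the ligand bind. VE-cadherin (Cdh5) and Pecam1 hold endothelial cells together, endomucin (Emcn) covers capillary and venous endothelium, apelin (Apln) is made by sprouting tip cells and acts on neighbouring cells through Aplnr, and carbonic anhydrase Car4 marks a specialised capillary cell of the mature lung and capillaries of several other tissues. Lymphatic endothelium shares Cdh5 and Pecam1 with blood endothelium.

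In the GRCm39 annotation, Vegfa lies at chr17:46327919-46343295, Kdr at chr5:76093487-76139118 and Flt1 at chr5:147498414-147662821, all on the minus strand. Nrp1 lies at chr8:129085085-129229844 and Cdh5 at chr8:104828257-104871143 (plus), Pecam1 at chr11:106545043-106641454 (minus), Emcn at chr3:137046828-137137946 (plus), Apln at chrX:47114023-47123730 (minus), Aplnr at chr2:84966569-84970267 (plus) and Car4 at chr11:84848612-84856870 (plus). All 10 are annotated as protein coding, and values are sums over all exons of a gene.

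Promoters of Apln, Kdr and Flt1, 3 of the 7 genes with a matched promoter, are shown from RefSeq (build GRCm38.p6). Each has 300 bases, from 250 before to 50 after the annotated start, on the strand of the gene. No promoter of Aplnr, Cdh5 or Pecam1 was matched. The capitals mark AGGAAG in Apln and Flt1 and CCGGAA in Kdr, each read on both strands (CTTCCT and TTCCGG on the other strand). Both are forms of the core bound by ETS factors, the family that includes the endothelial regulators Erg and Fli1. Apln lies at chrX:48034804-48035103 (minus strand), Kdr at chr5:75978406-75978705 (minus strand) and Flt1 at chr5:147725962-147726261 (minus strand).
Apln: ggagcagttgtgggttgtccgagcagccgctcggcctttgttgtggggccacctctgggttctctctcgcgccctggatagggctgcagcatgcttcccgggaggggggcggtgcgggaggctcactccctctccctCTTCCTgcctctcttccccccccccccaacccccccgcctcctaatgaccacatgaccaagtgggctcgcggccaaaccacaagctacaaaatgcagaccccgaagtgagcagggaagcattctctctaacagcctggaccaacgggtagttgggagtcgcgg
Kdr: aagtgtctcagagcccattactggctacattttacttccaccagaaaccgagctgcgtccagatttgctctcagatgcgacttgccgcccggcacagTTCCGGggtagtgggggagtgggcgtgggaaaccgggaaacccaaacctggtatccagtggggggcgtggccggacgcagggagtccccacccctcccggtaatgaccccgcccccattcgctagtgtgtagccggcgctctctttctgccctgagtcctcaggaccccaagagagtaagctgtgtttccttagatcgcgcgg
Flt1: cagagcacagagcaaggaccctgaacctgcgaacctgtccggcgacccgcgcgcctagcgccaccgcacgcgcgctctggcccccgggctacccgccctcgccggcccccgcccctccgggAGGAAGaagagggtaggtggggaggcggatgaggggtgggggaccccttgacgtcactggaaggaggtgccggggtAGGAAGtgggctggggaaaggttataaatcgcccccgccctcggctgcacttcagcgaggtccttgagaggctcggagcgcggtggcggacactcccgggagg
The promoter table matched 7 of the 10 genes with 8 promoters. Of these, 4 held AGGAAG, which is found in 35.4% of the 32851 promoters of that length, and 2 held CCGGAA, found in 14.9%. In the Car4 promoter the CCGGAA matches of both strands overlap each other, and none of the 8 promoters holds both motifs. A match describes the letters only.

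Hoxa5, whose loss defines the mutants, was lower in every Hoxa5-/- library than in every wt library of its context. Transcripts of Hoxa3 and of the antisense RNA Hoxaas3 overlap the gene, and the gene-level count does not tell an interrupted transcript from an intact one, so it checks the labels and not the loss of protein. In trachea, Hoxa5 was at 102.6, 94.8, 76.3 and 108.9 TPM (a read count scaled by exon length and by library total) in wt and at 29.1, 30.2, 20.9 and 37.7 TPM in Hoxa5-/- libraries. In lung at E12.5 it was at 275.6, 233.3, 288.3 and 304.1 TPM in wt against 74.8, 67.4, 74.9 and 67.2 TPM, and at E15.5 at 171.4, 155.8, 144.2 and 170.4 TPM against 47.7, 47.1, 42.2 and 30.8 TPM. In diaphragm it was at 60.6, 73.5, 94.8 and 60.1 TPM against 15.8, 23.1, 26.6 and 15.4 TPM. These 4 contexts thus had mutant levels well below those of wt. In somites Hoxa5 was at 172.8, 164.1, 236.5 and 171.4 TPM against 112.1, 107.7 and 85.2 TPM at E10.5, and at 98.4, 92.7, 112.5 and 107.2 TPM against 32.4, 29.2, 29.7 and 43.6 TPM at E12.5. In iBAT it was at 49.6, 47.6, 44.1, 49.0 and 51.5 TPM against 11.4, 12.8, 16.2, 10.6 and 9.84 TPM. The log2 fold change of Hoxa5 lay between -1.94 and -0.92, the smallest being that of somites at E10.5 (adjusted p = 0.0459, edgeR).

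A few libraries stood apart before any comparison. In lung at E15.5, replicate 4 of Hoxa5-/- had 36.7% of its TPM in its 10 most abundant genes, led by the ribosomal RNA gene Rn18s-rs5 with 19.7%, against 8.84% at most in the other 7 libraries of that context. This share lowers the TPM of all its other genes. Levels of the 10 genes are therefore compared between genotypes on CPM, counts scaled to the library total, after trimmed-mean (TMM) scaling, the scale of the tests. Sums of lists, ratios within a library and the level of Tubb3 are given in TPM. Replicate 1 of Hoxa5-/- lung at E12.5 had 9.09% of its TPM in the embryonic globin gene Hbb-y and 1.15% in mitochondrial genes, against 5.34% to 6.80% in the other 7 libraries. Replicate 3 of wt diaphragm summed to 618.3 TPM over the epithelium list of marker genes, against 33.2 to 104.7 TPM in the other wt libraries, and replicate 3 of Hoxa5-/- diaphragm to 366.1 TPM over the cartilage list, against 15.1 to 22.4 TPM in the other mutants. In iBAT, replicate 3 of Hoxa5-/- carried both the female transcript Xist and the Y-linked gene Ddx3y, whereas every other library of the study carried 1 of the 2 above 10 TPM. The number of libraries with Xist above 10 TPM differed between genotypes in every context. It was 2 of 4 in wt and 3 of 4 in Hoxa5-/- lung at E15.5, and 4 of 5 and 2 of 5 in iBAT.

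The 10 genes differed widely in level in wt tissues. Vegfa and Cdh5 were the most abundant of them in trachea and in lung at E12.5, at 173.3 and 125.8 TPM and at 218.9 and 161.1 TPM, and Car4 was the least abundant outside iBAT. Summed over the 10 genes, wt lung at E15.5 held 1324 ± 83.1 TPM (SD, n = 4), wt iBAT 800.8 ± 82.8 TPM (n = 5), wt lung at E12.5 736.2 ± 112 TPM, wt trachea 568.2 ± 61.5 TPM, wt somites at E12.5 503.8 ± 21.6 TPM, wt diaphragm 480.7 ± 51.6 TPM and wt somites at E10.5 279.2 ± 24.6 TPM (n = 4 each). Lung at E15.5 ranked first for 7 of the 10 genes and the wt libraries of somites at E10.5 ranked last for 7 of them. Orders that cross the sets of somites and iBAT and of the other tissues hold the sequencing centre too. As the samples are whole tissues, fewer endothelial cells and less RNA per cell cannot be told apart throughout.

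**Figure D1:**
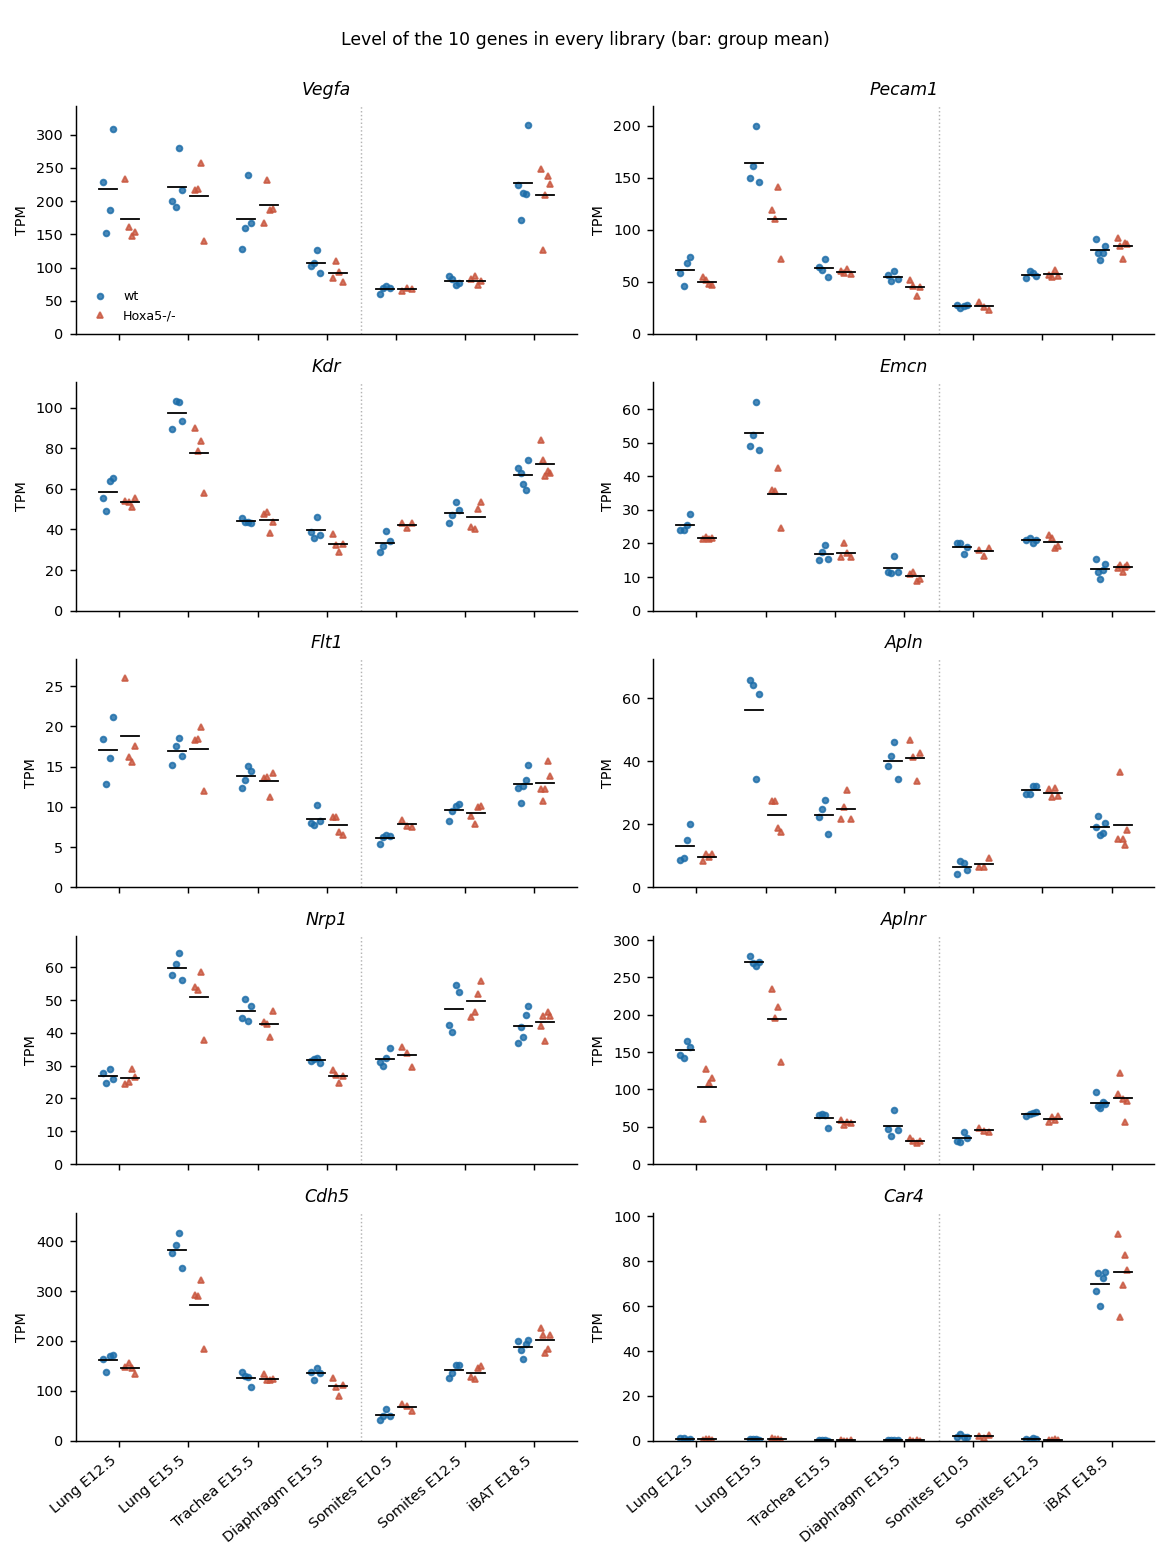
Level of each gene in TPM (vertical axes) in every library, by context (horizontal axis), with wt as circles, Hoxa5-/- as triangles and group means as bars. The dotted line parts the 2 sequencing sets, Cdh5 reaches 346.8 to 416.6 TPM in wt lung at E15.5, and Car4 is above 55 TPM only in iBAT.

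Among the endothelial genes, Cdh5 was at 376.2, 392.5, 416.6 and 346.8 TPM in wt lung at E15.5, above all libraries of every other wt group. Next came iBAT with 187.8 ± 15.2 TPM (SD, n = 5), lung at E12.5 with 161.1 ± 15.51 TPM, somites at E12.5 with 141.8 ± 12.6 TPM, diaphragm with 135.1 ± 9.53 TPM and trachea with 125.8 ± 12.6 TPM (n = 4 each). Each of these neighbours overlapped the next, and only somites at E10.5 were apart at the lower end with 51.3 ± 9.67 TPM (n = 4). Pecam1 had the same first and last contexts, from 164.6 ± 24.6 TPM in lung at E15.5 to 26.6 ± 1.03 TPM in somites at E10.5. Emcn differed from them in iBAT, which was first among the others for Cdh5 and Pecam1 and last for Emcn: it was at 15.4, 11.4, 9.35, 12.1 and 13.8 TPM there, overlapping diaphragm, against 52.8 ± 6.44 TPM in lung at E15.5.

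The receptor genes followed separate orders. Kdr was at 89.3, 103.3, 102.8 and 93.4 TPM in wt lung at E15.5, above all other wt groups. Flt1 had near equal means in lung at E12.5 (17.1 ± 3.52 TPM) and at E15.5 (16.9 ± 1.47 TPM), whose libraries overlapped, and 6.12 ± 0.508 TPM in somites at E10.5. Nrp1, which neurons also carry, ran from 59.8 ± 3.62 TPM in lung at E15.5 to 26.8 ± 1.91 TPM in lung at E12.5, so that the 2 lung stages stood at opposite ends of its order. The ligand Vegfa had 4 wt groups that overlapped as neighbours, iBAT with 226.8 ± 52.9 TPM (n = 5), lung at E15.5 with 221.7 ± 39.9 TPM, lung at E12.5 with 218.9 ± 67.2 TPM and trachea with 173.3 ± 47.2 TPM. Diaphragm followed apart with 106.9 ± 14.2 TPM, then somites at E12.5 with 80.3 ± 6.42 TPM and at E10.5 with 67.6 ± 5.39 TPM, each apart from the next.

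Apln and its receptor were not ordered alike. Aplnr was at 278.7, 269.9, 264.8 and 270.6 TPM in wt lung at E15.5 and at 146.3, 141.8, 165.2 and 157.1 TPM in wt lung at E12.5, and both groups lay apart from each other and from all lower groups. Diaphragm, second for Apln with 40.2 ± 5.004 TPM, was sixth for Aplnr with 50.6 ± 15.3 TPM. Within a library, the ratio of Aplnr to Apln TPM was 12.7 ± 3.999 in wt lung at E12.5, 5.15 ± 1.73 in wt lung at E15.5, 2.71 ± 0.261 in wt trachea and 1.25 ± 0.279 in wt diaphragm (n = 4 each). Car4 was at 66.6, 74.8, 60.2, 72.7 and 75.4 TPM in wt iBAT, where 952 to 1203 reads were counted per library. In the other 6 contexts its wt means did not exceed 2.01 TPM, and in trachea 0 to 11 reads were counted, so that no level of Car4 could be compared in most of them.

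Over the 14 group means, the genes whose level was most like that of Cdh5 among 16365 genes were Pecam1 (Pearson r = 0.977 of log2(mean TPM + 1)), Icam2 (r = 0.975) and Cd93 (r = 0.969), all endothelial surface genes. The 3 most like Vegfa were A530020G20Rik (r = 0.956), Jak3 (r = 0.954) and Ube2a (r = 0.949), and those most like Car4 were Gm10171 (r = 0.992), Iscu (r = 0.991) and Olig1 (r = 0.991). These group means share tissues and sequencing centre, and for Car4 the likeness rests on the 2 iBAT groups.

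The wt libraries were first compared between stages of 1 tissue, with edgeR's quasi-likelihood test, Benjamini-Hochberg adjustment over all genes and a call at an adjusted p under 0.05 with a fold change of at least 1.5. From E12.5 to E15.5 in lung, 7 of the 9 genes tested rose, against 15.4% of 18158 genes that rose and 9.15% that fell. Apln rose most, from 8.76, 9.33, 14.9 and 19.9 TPM to 65.9, 64.2, 34.2 and 61.3 TPM, a log2 fold change of 2.07 (SE 0.28, adjusted p = 0.000161). No library of 1 stage overlapped those of the other. Pecam1 rose by 1.39 (SE 0.14), Cdh5 by 1.22 (SE 0.074), Nrp1 by 1.12 (SE 0.061), Emcn by 1.01 (SE 0.091), Aplnr by 0.79 (SE 0.046) and Kdr by 0.70 (SE 0.084) on the log2 scale. Vegfa (-0.01, SE 0.19) and Flt1 (-0.05, SE 0.13) were not called, with adjusted p = 0.957 and adjusted p = 0.768. The ratio of Flt1 to Kdr TPM was 0.252 to 0.333 in wt lung at E12.5 and 0.170 to 0.181 at E15.5, with no overlap.

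Other endothelial genes were read beside them from lists chosen for their function. Of 15 surface and junction genes, 13 rose in wt lung between the stages, with the largest rises in Clec14a (2.07, SE 0.14), an endothelial lectin, and Ptprb (1.72, SE 0.16), the vascular endothelial phosphatase. Of 11 endothelial transcription factors tested, 7 rose and none fell, led by Sox17 (1.29, SE 0.14) and Gata2 (1.16, SE 0.16). Of 7 lung capillary genes, 5 rose, led by Gpihbp1 (2.75, SE 0.29), which anchors lipoprotein lipase on capillaries, and Cd36 (2.30, SE 0.34), a fatty acid receptor. Arterial and venous genes rose in 2 of 7, Bmx (1.31, SE 0.27) and Gja4 (0.74, SE 0.19). Among the other VEGF ligands and receptors, Vegfd rose by 4.45 (SE 0.21) and Pgf fell by 1.38 (SE 0.11), and among tip cell genes Pdgfb rose (1.23, SE 0.11) and Esm1 fell by 1.27 (SE 0.32). Of 11 hypoxia response genes, Epas1 rose (1.41, SE 0.13), and 3 fell, with the largest falls in Bnip3 (-1.42, SE 0.49) and Pgk1 (-0.83, SE 0.15). Markers of other cell types changed between the same libraries. All 6 epithelium markers rose, with a median of 1.34 beside 0.996 for the surface and junction genes, led by Sftpc (8.22, SE 0.40), the surfactant protein C gene. The lymphatic endothelium list had 4 genes up, led by Stab2 (2.38, SE 0.15), and 2 down, Prox1 (-0.75, SE 0.12) and Reln (-0.63, SE 0.13). Of 7 pericyte genes 3 rose, led by Abcc9 (4.90, SE 0.28), and 1 fell, while the neuronal gene Tubb3 fell by 1.93 (SE 0.61). The part of these cells in the endothelial values was not tested.

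In wt somites from E10.5 to E12.5, 4 of 10 genes rose and Car4 fell, against 24.1% of 19773 genes that rose and 18.4% that fell. Apln again rose most, from 4.19, 8.26, 7.56 and 5.39 TPM to 29.6, 29.6, 32.1 and 32.04 TPM (log2 fold change 2.21, SE 0.17, adjusted p = 8.13e-08). Cdh5 rose by 1.41 (SE 0.10), Pecam1 by 1.03 (SE 0.076) and Aplnr by 0.89 (SE 0.088). Car4 fell by 1.47 (SE 0.38), from 22 to 48 reads per library to 4 to 15. Flt1 (0.58, SE 0.096), Nrp1 (0.49, SE 0.10), Kdr (0.47, SE 0.086) and Vegfa (0.18, SE 0.074) had an adjusted p under 0.05 and less than the 1.5-fold change, and Emcn was not called (0.07, SE 0.099). Of the 15 surface and junction genes 10 rose, led by Clec14a (1.46, SE 0.10) and Eng (1.41, SE 0.12), and of 7 tip cell genes 5 rose, led by Nid2 (1.90, SE 0.14) and Pdgfb (1.74, SE 0.15), while the chemokine receptor gene Cxcr4 fell by 1.37 (SE 0.10). Transcription factors were divided, with 4 up, led by Klf2 (1.66, SE 0.14) and Erg (1.57, SE 0.11), and 2 down, Tal1 (-0.76, SE 0.13) and Nr2f2 (-0.75, SE 0.096). Markers of several other cell types rose by more in these libraries. Pericyte genes rose in 6 of 7 (median 2.03), macrophage genes in 6 of 6 (median 3.46), skeletal muscle genes in 6 of 6 (median 4.38) and cartilage genes in 5 of 5 (median 2.92), beside a median of 0.70 for the surface and junction genes, and the neuronal gene Tubb3 fell by 1.95 (SE 0.25). Their part in the endothelial values was not tested.

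Between tissues at E15.5, the wt lung was compared with wt trachea and wt diaphragm. Against trachea, 6 of 9 genes were higher in lung, where 10.1% of 19340 genes were higher and 20.1% lower. Aplnr differed most (2.18, SE 0.11, adjusted p = 1.08e-06), followed by Emcn (1.69, SE 0.11), Cdh5 (1.64, SE 0.088), Pecam1 (1.41, SE 0.12), Apln (1.33, SE 0.22) and Kdr (1.18, SE 0.063). Vegfa was not called (0.39, SE 0.19, adjusted p = 0.122). Nrp1 (0.39, SE 0.069) and Flt1 (0.33, SE 0.089) had an adjusted p under 0.05 and less than the 1.5-fold change. Among surface and junction genes 13 of 15 were higher in lung, led by Esam (1.94, SE 0.085) and Cldn5 (1.65, SE 0.12), and 1 was lower, Vwf (-1.06, SE 0.20), a marker of larger vessels. Transcription factors were higher in 7 of 11 and lower in none. The other vessel lists were divided. Of 7 arterial and venous genes Dll4 was higher and 2 were lower, Bmx (-2.31, SE 0.37) and Gja5 (-0.93, SE 0.14). Of 7 tip cell genes 2 were higher, Pdgfb (1.53, SE 0.13) and Cxcr4 (1.12, SE 0.14), and 2 lower, Angpt2 (-2.99, SE 0.14) and Adm (-2.31, SE 0.29). Capillary genes were higher in 3 of 7 and lower in 2, and lymphatic endothelium genes higher in 2 of 7 and lower in 4. Markers of other cell types also differed, with skeletal muscle genes lower in lung in 6 of 6 and cartilage genes in 4 of 5. The skeletal muscle list summed to a mean of 10.8 TPM in wt lung and 367.3 TPM in wt trachea, the cartilage list to 124.4 and 1417 TPM, and the neuronal gene Tubb3 was lower in lung too (-5.36, SE 0.28). The part of these cells in the endothelial values was not tested.

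Against diaphragm, 8 of 9 genes were higher in lung, with 15.6% of 18984 genes higher and 20.9% lower. By library totals without TMM the same number was called, while 24.7% of genes were higher and 16.8% lower and the median of all genes rose by 0.24. Aplnr again differed most (2.12, SE 0.17), then Emcn (1.75, SE 0.13), Pecam1 (1.27, SE 0.11), Cdh5 (1.20, SE 0.086), Kdr (0.99, SE 0.090), Vegfa (0.75, SE 0.13), Flt1 (0.68, SE 0.10) and Nrp1 (0.61, SE 0.059). Apln was the exception, at 65.9, 64.2, 34.2 and 61.3 TPM in lung and 38.6, 41.8, 46.1 and 34.3 TPM in diaphragm (0.18, SE 0.19, adjusted p = 0.421). Its values overlapped. Surface and junction genes were higher in lung in 12 of 15, led by Clec14a (2.14, SE 0.19) and Plvap (1.92, SE 0.17), and transcription factors in 8 of 11, led by Sox17 (2.21, SE 0.23). Arterial and venous genes were higher in 3 of 7 and lower in none. In the other vessel lists calls went both ways, with 2 of 7 tip cell genes higher and 3 lower, 4 of 7 capillary genes higher and 3 lower, and 2 of 7 lymphatic endothelium genes higher and 4 lower. Among other cell types, epithelium genes were higher in lung in 6 of 6, and macrophage genes (median -1.46) and skeletal muscle genes were lower in 6 of 6 each, the muscle list summing to a mean of 10.8 TPM in wt lung and 19010 TPM in wt diaphragm. Their part in the endothelial values was not tested. Between diaphragm and trachea, Apln alone of 9 genes was called, higher in diaphragm (1.10, SE 0.16, adjusted p = 0.000444), against 14.1% of 19730 genes higher and 18.4% lower. By library totals, which moved the median of all genes by -0.23, Apln was at 0.87 (adjusted p = 0.00180), and Vegfa (-0.63, adjusted p = 0.0178) and Flt1 (-0.62, adjusted p = 0.00142) were called lower in diaphragm, all in edgeR.

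Wt iBAT at E18.5 was compared with wt somites at E12.5, which hold precursors of brown fat. Only Car4 and Vegfa were at least 1.5-fold higher in iBAT on all 3 scales read here, and for the other genes the size or the direction moved with the scaling. With the TMM scaling of the test, 8 of 10 genes were higher, against 31% of 19369 genes higher and 35.3% lower. Scaled by library totals alone, edgeR called 7 genes higher, against 21.2% of genes higher and 52.5% lower, and the median of all genes moved from -0.16 to -0.80. On mean TPM that median was -1.37, and mitochondrial genes held 21.9% to 26.3% of the TPM in wt iBAT and 4.53% to 5.34% in wt somites. The share of the mitochondrial genes in these shifts was not tested. Car4 differed most (7.71, SE 0.19), from 4 to 15 reads per library in somites. Vegfa was at 224.6, 171.7, 212.4, 210.9 and 314.5 TPM in iBAT and at 87.9, 82.8, 73.3 and 77.2 TPM in somites, and every iBAT library lay above every somite library. The log2 ratio of these mean TPM was 1.498, beside a log2 fold change of 2.05 by library totals and 2.69 with TMM (SE 0.12, adjusted p = 9.36e-12). With TMM, Pecam1 (1.71, SE 0.073), Kdr (1.68, SE 0.083), Flt1 (1.62, SE 0.094), Cdh5 (1.61, SE 0.084) and Aplnr (1.502, SE 0.076) were higher, and they were called by library totals too, at 0.85 to 1.06, while their mean TPM were only 1.23 to 1.41 times those of somites. Nrp1 was called higher with TMM alone (1.04, SE 0.11), was at 0.39 by library totals and had the lower mean TPM in iBAT, 42.2 against 47.4 TPM. Apln and Emcn had no stable direction. They were at 0.53 (SE 0.099) and 0.45 (SE 0.099) with TMM, at -0.12 and -0.19 by library totals and lower in iBAT by TPM, 19.2 against 30.9 TPM and 12.4 against 20.9 TPM. The place of iBAT in the orders of TPM levels is thus tied to that scale.

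The gene lists of this comparison are given with TMM. Of 11 hypoxia response genes 9 were higher in iBAT, led by Bnip3 (3.60, SE 0.12) and Pdk1 (2.93, SE 0.079), and the glucose transporter gene Slc2a1 was lower (-1.93, SE 0.097). Hypoxia can induce Vegfa, and its part in the Vegfa difference was not tested. Of the 15 surface and junction genes 14 were higher, led by Cldn5 (2.72, SE 0.12) and Ptprb (2.53, SE 0.11). By library totals 8 of the surface and junction genes were higher and 1 lower, and 6 of the hypoxia response genes higher and 2 lower. The surface and junction list summed to 797.7 TPM in iBAT, of which Cldn5 held 249 TPM, and to 588.1 TPM in somites. In the capillary list, Cd36 (7.39, SE 0.14) and Gpihbp1 (5.18, SE 0.13), used for lipid uptake by adipocytes and their capillaries, were the 2 genes highest above somites, and of the 7 genes of that list 3 were higher and 2 lower, Fibin (-3.00, SE 0.086) and Tbx2 (-1.31, SE 0.093). Transcription factors were higher in 7 of 11 and lower in 1. Arterial and venous genes were higher in 3 of 7 and lower in 4, and tip cell genes higher in 3 of 7 and lower in 3. Lymphatic endothelium genes were higher in 1 of 6 and lower in 5, with a median of -2.40. By library totals, transcription factors were higher in 2 and lower in 3, and arterial and venous genes higher in 1 and lower in 4. Tip cell genes were then higher in 2 and lower in 4, capillary genes higher in 2 and lower in 3. Lymphatic endothelium genes were then higher in none and lower in 5. With TMM again, brown fat markers were higher in 6 of 6 and red blood cell genes in 5 of 6 (median 1.81). The neuronal gene Tubb3 was lower (-8.64, SE 0.41). Skeletal muscle genes were lower in 4 of 6, epithelium genes in 5 of 6 and cartilage genes in 5 of 5. The part of these cells in the endothelial values was not tested.

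**Figure D2:**
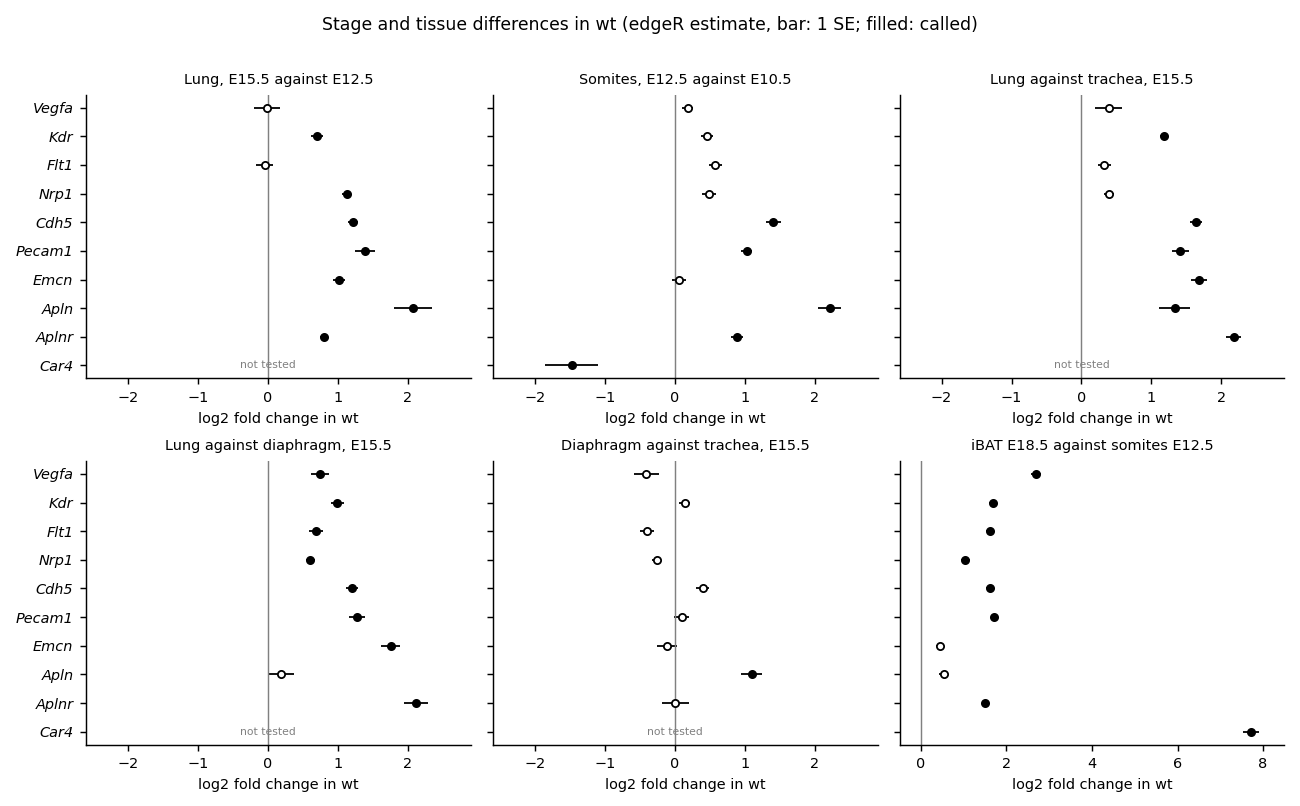
Log2 fold change (horizontal axes) of each gene in 6 comparisons of wt groups, with bars of 1 SE and filled points for genes called by edgeR. The last panel has a wider axis, on which Car4 reaches 7.71, and 7 genes are called between lung stages against 1 between diaphragm and trachea. Values are on the TMM scale, and Apln and Emcn in the last panel turn sign by library totals.

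The genotype was then compared within each context. Fitted by context and without a block, edgeR called none of the 10 genes in any of the 7 contexts, where the share of all genes called ran from 0.00529% to 0.594%. The direction and size of the values differed between contexts, and lung at E15.5 had the most members with an unadjusted p under 0.05, 7 of 9. DESeq2, the tool of the study's methods, called Apln in lung at E15.5 and Aplnr in diaphragm. Other edgeR fits called Apln, Emcn or Aplnr, as given with their values.

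**Figure D3:**
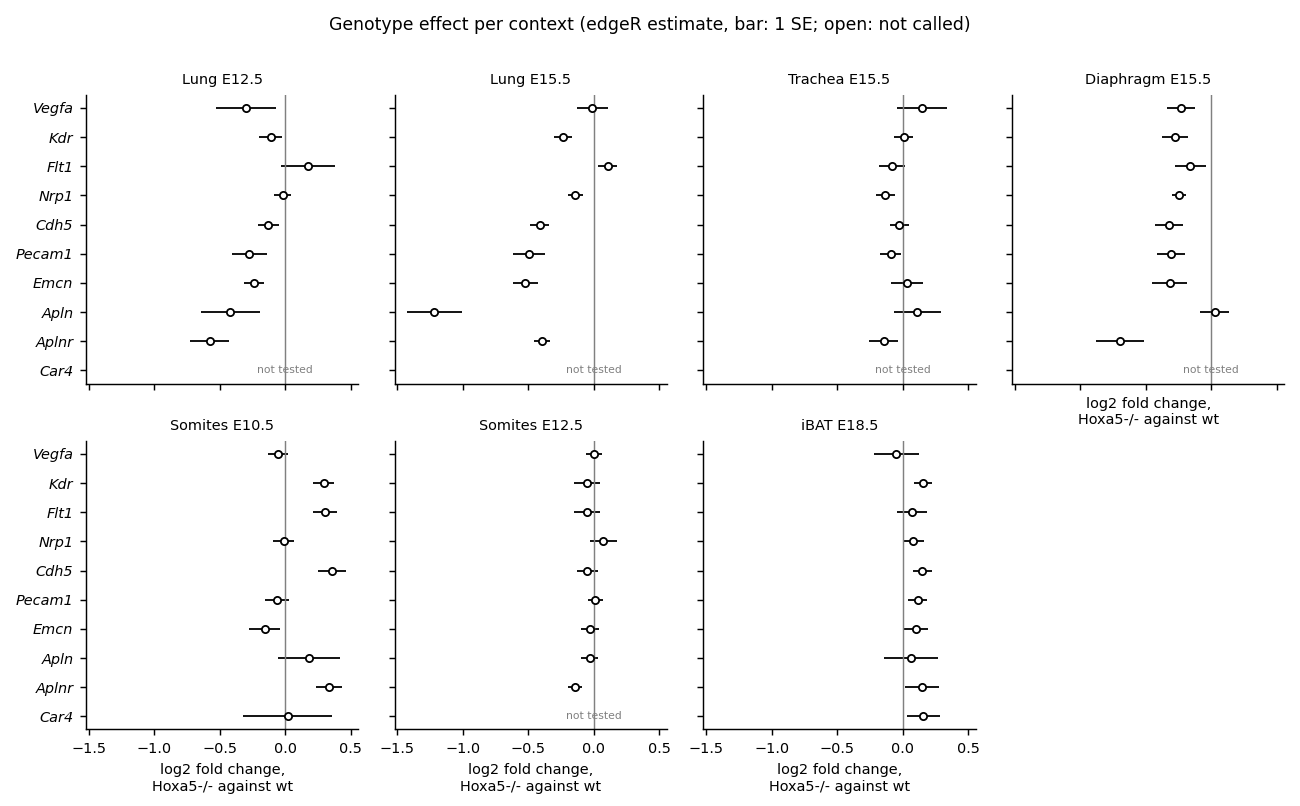
Log2 fold change of Hoxa5-/- against wt (horizontal axes) for each gene in the 7 contexts, with bars of 1 SE; open points are genes not called by edgeR, and Car4 was not tested where both means were below 1 TPM. Apln in lung at E15.5, at -1.22, lies farthest from 0.

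In lung at E15.5, edgeR called 0.124% of 17777 genes and DESeq2 0.467%, while 6.32% had an unadjusted p under 0.05 in edgeR. Apln was at 53.6, 52.8, 27.9 and 49.8 TMM-scaled CPM in wt and at 21.98, 21.7, 15.1 and 20.5 CPM in Hoxa5-/- libraries. All 4 mutant libraries were below all wt libraries, of which replicate 3 was low and nearest to them. The log2 fold change was -1.22 (SE 0.21), with an adjusted p = 0.0903 in edgeR and an adjusted p = 3.11e-06 in DESeq2 (-1.21). Without wt replicate 3 it was -1.38 with an adjusted p = 0.00379 in edgeR, the only one of 8 fits without 1 library in which edgeR called it, while DESeq2 called it in all 8. EdgeR also called Apln with the replicate number as a block (-1.18, adjusted p = 0.000800) and in 1 fit for all libraries of the table (-1.21, adjusted p = 0.00434). The numbers are not known to pair the genotypes, and here 1 of 4 libraries was most like its own number. Fits by context were planned because the contexts differ in spread. Its receptor Aplnr was at 266.5, 260.8, 252.9 and 258.5 CPM in wt and at 221.4, 182.6, 197.3 and 188.3 CPM in mutants (-0.40, SE 0.064), with an adjusted p = 0.0729 in edgeR and an adjusted p = 9.81e-06 in DESeq2. The groups did not overlap, and the change was smaller than 1.5-fold.

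The 3 endothelial surface genes had values of like size in that context. Cdh5 was at 408.8, 431.1, 452.2 and 376.6 CPM in wt and at 314.4, 307.1, 342.8 and 288.5 CPM in Hoxa5-/- libraries (-0.41, SE 0.074, adjusted p = 0.105 in edgeR). Pecam1 was at 242.0, 263.3, 321.9 and 235.2 CPM in wt and at 189.5, 173.8, 223.2 and 166.2 CPM in mutants (-0.50, SE 0.12, adjusted p = 0.283 in edgeR). Emcn was at 68.4, 73.8, 86.7 and 67.0 CPM in wt and at 49.7, 48.6, 58.1 and 49.5 CPM in mutants (-0.52, SE 0.094, adjusted p = 0.109 in edgeR). In each the highest mutant library lay below the lowest wt library, and replicate 3 was the highest of its genotype. Without Hoxa5-/- replicate 3, edgeR called Emcn (-0.59, adjusted p = 0.0495). By DESeq2, Apln, Aplnr, Cdh5, Emcn and Pecam1 had an adjusted p under 0.05 at any fold, against 1.01% of all genes. Every mutant library was below every wt library in 6 of the 9 genes, Kdr, Cdh5, Pecam1, Emcn, Apln and Aplnr, as in 2.69% of all genes. The members were chosen with earlier results of these data known. They are also not independent of each other, Cdh5 and Pecam1 having r = 0.977 over the group means.

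**Figure D4:**
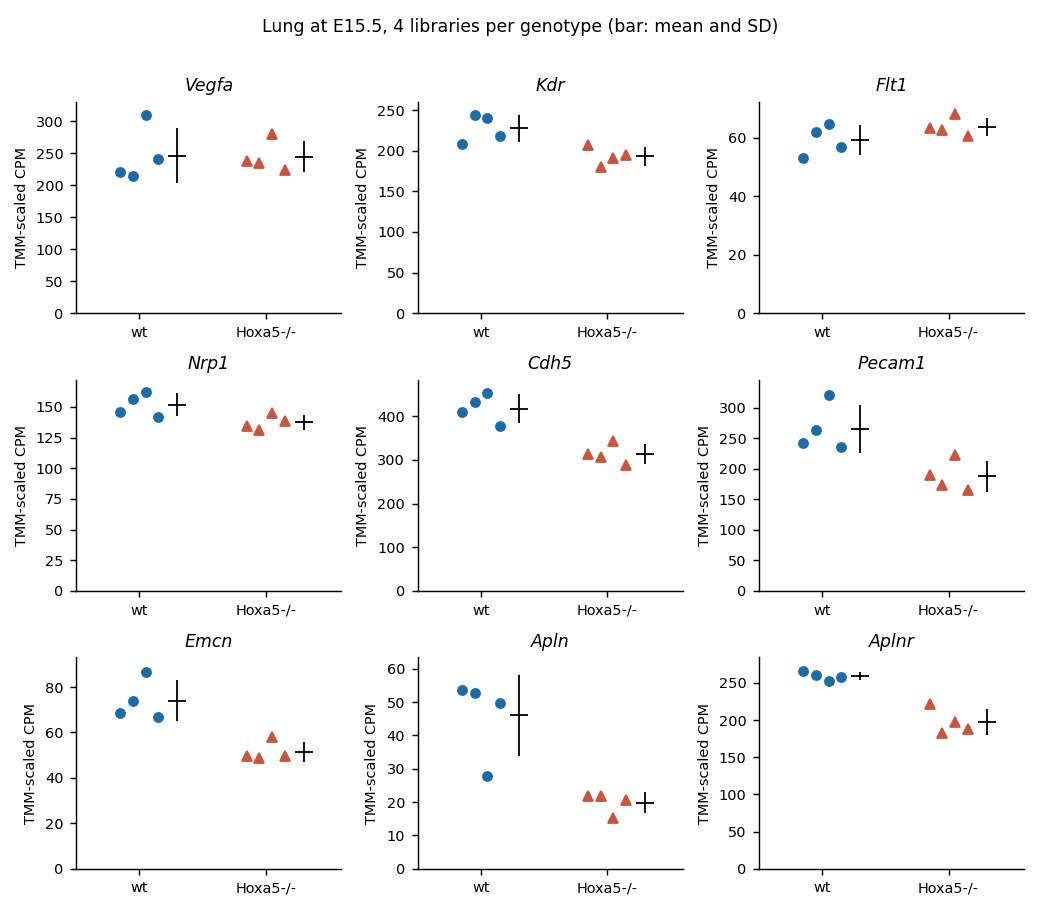
TMM-scaled CPM (vertical axes, from 0) of 9 genes in the 4 wt and 4 Hoxa5-/- libraries of lung at E15.5, with the mean and SD beside each group. Flt1 and Vegfa overlap between genotypes, while Aplnr runs from 252.9 to 266.5 CPM in wt and from 182.6 to 221.4 CPM in mutants.

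The VEGF genes of the same libraries had values of both signs, none of them called by either tool in the fit by context. Differences between these genes were not tested. Kdr was at 208.6, 243.7, 239.7 and 218.0 CPM in wt and at 207.4, 179.3, 190.7 and 194.3 CPM in mutants (-0.24, SE 0.067, adjusted p = 0.441 in edgeR), with the highest mutant library just below the lowest of wt. Flt1 was at 53.0, 62.0, 64.8 and 57.0 CPM in wt and at 63.4, 62.7, 68.1 and 60.5 CPM in mutants (0.11, SE 0.073, adjusted p = 0.905). Flt1 and Kdr values thus had opposite signs, and the ratio of Flt1 to Kdr TPM within a library was 0.170 to 0.181 in wt and 0.204 to 0.239 in mutants, without overlap. Vegfa was at 221.1, 213.7, 308.9 and 240.3 CPM in wt and at 237.1, 235.0, 279.2 and 224.2 CPM in mutants (-0.01, SE 0.12, adjusted p = 0.997), and these overlapped. Nrp1 was at -0.14 (SE 0.058, adjusted p = 0.742). The ratio of Nrp1 to Cdh5 TPM was 0.153 to 0.162 in wt and 0.182 to 0.206 in mutants. The other ratios read in these libraries overlapped between genotypes. Vegfa to Kdr was 1.848 to 2.716 in wt and 2.409 to 3.085 in mutants, and Kdr to Cdh5 0.2375 to 0.2694 and 0.2589 to 0.3135. Overlap was also found for Aplnr to Apln and for Aplnr, Apln, Emcn and Pecam1 to Cdh5. Ratios without overlap were found in other contexts too. Aplnr to Cdh5 in lung at E12.5 was 0.893 to 1.024 in wt and 0.409 to 0.867 in mutants. Aplnr to Apln in diaphragm was 0.902 to 1.578 and 0.733 to 0.832. For somites at E10.5, Vegfa to Kdr was 1.846 to 2.191 and 1.517 to 1.69. Nrp1 to Cdh5 was 0.503 to 0.768 and 0.484 to 0.496 there. No ratio of 2 genes was tested in any context, and no share over other gene pairs was computed. The median over the 9 genes was -0.40, with 8 negative, beside a median of -0.01 over all genes.

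Other endothelial genes in lung at E15.5 included 15 surface and junction genes, of which none was called by edgeR and 1, Ptprb, by DESeq2 (-0.86, SE 0.13, adjusted p = 0.0644 in edgeR). All 15 were negative, with a median of -0.35, and those with the largest values beside Ptprb were Tie1 (-0.51, SE 0.083) and Icam2 (-0.49, SE 0.11). Of 11 transcription factors none was called by edgeR and Sox18 was called by DESeq2 (-0.62, SE 0.14), with 9 negative and a median of -0.37. In the lung capillary list Kit, the stem cell factor receptor gene, fell by 0.63 (SE 0.079, adjusted p = 0.0236 in edgeR), and 5 of 7 genes were negative. Hypoxia response genes had a median of 0.01 over 11 genes and the other VEGF ligands and receptors one of 0.03 over 6. In the list named lymphatic endothelium, 2 of 6 genes tested fell: Lyve1, a hyaluronan receptor that some macrophages and embryonic blood endothelium also carry (-1.79, SE 0.18, adjusted p = 0.00880 in edgeR), and Stab2 (-1.57, SE 0.18, adjusted p = 0.0126 in edgeR), a scavenger receptor also known from sinusoidal endothelium. The defining lymphatic regulator Prox1 was at 0.15 (SE 0.23) and Mmrn1, the most abundant of the list in mutants, at 0.58 (SE 0.20), neither called.

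The summed level of the lymphatic endothelium list was 233.1, 257.4, 258.4 and 230.3 TPM in wt and 171.0, 180.2, 157.5 and 141.3 TPM in mutants, and that of the pan-endothelial surface and junction genes was 1640, 1663, 1752 and 1505 TPM in wt and 1343, 1351, 1400 and 816.5 TPM in mutants, the last value of each being that of the library rich in ribosomal RNA. None of the lymphatic markers was at 0 in all libraries. Epithelial markers, led by Sftpc, summed to 3994 to 9771 TPM in wt and 2044 to 9684 TPM in mutants. Their median log2 fold change was -0.18, with all 6 negative and none called. Several lists of other cell types had positive medians, with none called by edgeR. These were liver (2.93 over 4 genes), skeletal muscle (1.115 over 3), cartilage (0.37 over 4) and mesothelium (0.26 over 4, with 1 called higher by DESeq2). Macrophage genes were at 0.05 over 6, pericyte genes at -0.10 over 7 and red blood cell genes at -0.25 over 6. The part of these lists in the values of the 9 genes was not tested. Without the library rich in ribosomal RNA, the log2 fold changes in edgeR were -1.23 for Apln, -0.37 for Aplnr, -0.37 for Cdh5 and -0.50 for Emcn, so that each was about as large as with it, with adjusted p = 0.290, adjusted p = 0.220, adjusted p = 0.242 and adjusted p = 0.333.

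In lung at E12.5, edgeR called 0.0798% of 17548 genes and DESeq2 0.462%, with 8.01% under an unadjusted p of 0.05. No member was called by either tool, and 2 of 9 had an unadjusted p under 0.05, Aplnr and Emcn. Aplnr was at 145.8, 145.3, 160.2 and 152.8 CPM in wt and at 66.5, 123.6, 104.2 and 110.6 CPM in mutants (-0.58, SE 0.15, adjusted p = 0.308 in edgeR and adjusted p = 0.0199 in DESeq2, where 0.997% of genes pass at any fold). All mutant libraries lay below all wt libraries, and the lowest was replicate 1, the library rich in Hbb-y. Without it the log2 fold change was -0.42 (SE 0.065, adjusted p = 0.0566 in edgeR). Emcn was at 34.9, 35.9, 36.2 and 40.8 CPM in wt and at 34.5, 30.8, 29.9 and 30.3 CPM in mutants (-0.24, SE 0.076). Aplnr and Emcn were the only members without overlap, as were 2.62% of genes in this direction. Apln was at 7.44, 8.14, 12.3 and 16.5 CPM in wt and at 7.97, 8.74, 7.77 and 8.62 CPM in mutants (-0.42, SE 0.22), with overlap. The median over the 9 genes was -0.24, with 8 negative, beside 0.00 over all genes, and 13 of 15 surface and junction genes were negative with a median of -0.15. Hypoxia response genes had a median farther from 0, -0.36 over 11 genes with 9 negative and none called. In the lymphatic endothelium list DESeq2 called Lyve1 (-1.30, SE 0.26, adjusted p = 0.141 in edgeR) and Stab2 (-0.74, SE 0.18, adjusted p = 0.261 in edgeR). Among markers of other cell types edgeR called the cartilage gene Col9a1, which rose by 1.17 (SE 0.076, adjusted p = 9.04e-05), and the part of such cells in these values was not tested.

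The red blood cells list, led by Hbb-y, summed to 107600 TPM in replicate 1 of the E12.5 Hoxa5-/- lungs and to 14020 to 20030 TPM in the other mutants, against 13570 to 25940 TPM in wt. The same replicate had the highest Flt1, 105.0 CPM against 55.0 to 61.4 CPM in the other mutants and 48.1 to 75.0 CPM in wt, and the highest Vegfa of the mutants, 299.1 CPM against 164.7 to 180.6 CPM. Flt1, at 0.17 (SE 0.21) with that library, was at -0.09 without it. The part of red blood cells in these values was not tested.

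In diaphragm, edgeR called 0.594% of 18019 genes and DESeq2 2.25%, and 13% had an unadjusted p under 0.05. Of the 9 genes tested, 6 had such a p and 8 were negative, with a median of -0.28 beside 0.00 over all genes. Aplnr was at 50.2, 37.0, 72.1 and 46.6 CPM in wt and at 35.4, 30.6, 28.7 and 32.5 CPM in mutants (-0.70, SE 0.18), with an adjusted p = 0.15 in edgeR and an adjusted p = 0.00808 in DESeq2. The groups did not overlap, and wt replicate 3, the library rich in epithelial markers, was the highest. Without it the log2 fold change was -0.48 (SE 0.11, adjusted p = 0.112) in edgeR and -0.49 (adjusted p = 0.00602) in DESeq2, below the 1.5-fold change, and DESeq2 also lost the call without Hoxa5-/- replicate 2 (adjusted p = 0.0574). In 1 fit for all libraries of the table edgeR called Aplnr (-0.68, adjusted p = 0.00899), and with the replicate number as a block it did not (-0.66, adjusted p = 0.0734). Nrp1 was at 89.2, 83.6, 85.1 and 84.8 CPM in wt and at 76.7, 70.3, 67.1 and 74.3 CPM in mutants (-0.25, SE 0.053, adjusted p = 0.0901 in edgeR and adjusted p = 0.00296 in DESeq2, where 3.87% of genes pass at any fold). Aplnr and Nrp1 were the members in which every mutant library was below every wt library, as in 4.91% of genes.

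Apln took another course in diaphragm than in lung. It was at 35.2, 34.9, 38.9 and 30.3 CPM in wt diaphragm and at 40.2, 34.4, 29.4 and 37.8 CPM in mutants (0.03, SE 0.11, adjusted p = 0.937), with full overlap. Its ratio to Cdh5 TPM was 0.252 to 0.342 in wt and 0.372 to 0.381 in mutants of diaphragm, against 0.0822 to 0.177 in wt and 0.0589 to 0.0949 in mutants of lung at E15.5. Cdh5 (-0.32, SE 0.11), Emcn (-0.32, SE 0.13), Pecam1 (-0.31, SE 0.11) and Kdr (-0.28, SE 0.10) had adjusted p-values from 0.237 to 0.362 in edgeR. Of the 15 surface and junction genes none was called by edgeR and Cldn5, Clec14a and Ptprb by DESeq2, with 14 negative and a median of -0.44. In the capillary list Ednrb, the endothelin receptor gene, which neural crest cells also use, fell by 1.16 (SE 0.12, adjusted p = 0.00680 in edgeR).

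Other vessel genes and markers of other cell types were read in the same diaphragm libraries. Pericyte genes were negative in 7 of 7, with a median of -0.25 and none called by edgeR, while DESeq2 called Rgs5 (-0.99, SE 0.21) and Kcnj8 (-0.91, SE 0.17). In the lymphatic endothelium list, with a median of 0.07 over 7 genes, none was called by edgeR and DESeq2 called Ccl21a (-1.72, SE 0.43) and Mmrn1 (-1.27, SE 0.24). Of 6 arterial and venous genes 5 were negative, and the arterial connexin gene Gja5 was positive (0.99, SE 0.18, adjusted p = 0.0565 in edgeR) and called by DESeq2. Among neuronal markers Stmn2 (-3.20, SE 0.27) and Tubb3 (-2.85, SE 0.35), both cytoskeletal genes of neurons, fell by edgeR. Tubb3 was at 11.4, 20.7, 7.54 and 11.2 TPM in wt and at 0.975, 1.90, 2.22 and 1.92 TPM in mutants, with no overlap. The epithelium list summed to 79.8, 104.7, 618.3 and 33.2 TPM in wt and 43.8, 22.2, 108.0 and 79.7 TPM in mutants, with a median log2 fold change of -2.54 over 6 genes and none called by edgeR, whereas DESeq2 called Epcam (-3.65, SE 0.92). The cartilage list summed to 22.4, 15.1, 366.1 and 18.9 TPM in mutants and 19.3 to 34.0 TPM in wt, with a median of 3.18 over 5 genes and none called by edgeR. Without the mutant library rich in cartilage markers, Aplnr was at -0.64 (adjusted p = 0.304) in edgeR and at -0.65 (adjusted p = 0.0454) in DESeq2, and Nrp1 at -0.21 (adjusted p = 0.195) in edgeR. Liver markers, led by Alb, were present in every diaphragm library, from 1500 to 8480 TPM in wt and from 343.9 to 10440 TPM in mutants, overlapping and with none called. The part of these cells in the values of the 9 genes was not tested.

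In trachea, edgeR called 0.0156% of 19220 genes and DESeq2 0.271%, with 6.70% under an unadjusted p of 0.05. None of the 9 genes was called by either tool or had an unadjusted p under 0.05 in edgeR. The values ran from -0.15 (Aplnr, SE 0.11) to 0.15 (Vegfa, SE 0.19), with a median of -0.02 beside 0.00 over all genes. Cdh5 was at 147.1, 144.9, 141.9 and 118.9 CPM in wt and at 144.3, 131.3, 133.1 and 135.0 CPM in mutants, with full overlap. Of the endothelial lists, Ptprb was called, falling by 0.67 (SE 0.069, adjusted p = 0.0475 in edgeR), and DESeq2 also called Vwf (-0.997, SE 0.15, adjusted p = 0.225 in edgeR).

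In somites at E10.5, edgeR called 0.0215% of 18573 genes and DESeq2 0.0969%, and 12.7% had an unadjusted p under 0.05. No member was called by either tool, and 4 of 10 had such a p, each with the higher level in mutants and with an adjusted p = 0.391 in edgeR. Kdr was at 79.0, 84.3, 95.5 and 87.7 CPM in wt and at 103.8, 101.8 and 112.7 CPM in mutants (0.29, SE 0.082), Flt1 at 22.2, 24.6, 23.9 and 24.4 CPM and at 30.2, 28.7 and 29.2 CPM (0.30, SE 0.090), and Aplnr at 35.0, 32.7, 43.0 and 36.4 CPM and at 47.8, 45.0 and 46.2 CPM (0.33, SE 0.10). In these 3 genes every mutant library was above every wt library, as in 4.12% of genes. Cdh5 was at 52.2, 61.7, 73.0 and 60.2 CPM in wt and at 83.3, 81.0 and 72.7 CPM in mutants (0.36, SE 0.11), overlapping at 1 library. Emcn (-0.16, SE 0.12) and Pecam1 (-0.06, SE 0.094) had the opposite sign, and the median over the 10 genes was 0.10, beside -0.01 over all genes. Transcription factors were positive in all 11 tested, with a median of 0.13 and none called. Some lists of other cell types had medians farther from 0 in the same libraries, again with none called by edgeR. Pericyte genes were positive in 7 of 7 (median 0.39), skeletal muscle genes in 5 of 5 (median 0.51, with Acta1 called by DESeq2 at 1.20, SE 0.25) and mesothelium genes in 3 of 3 (median 0.70), while red blood cell genes were negative in 6 of 6 (median -0.43). Their part in the values of the 10 genes was not tested.

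In somites at E12.5, edgeR called 0.00529% of 18906 genes and DESeq2 0.0106%, with 3.24% under an unadjusted p of 0.05. None of the 9 genes was called by either tool, and 1, Aplnr, had such a p. It was at 62.4, 67.1, 67.8 and 69.1 CPM in wt and at 56.2, 61.6, 60.0 and 63.0 CPM in mutants (-0.15, SE 0.052, adjusted p = 0.999 in edgeR), overlapping at the lowest wt library. The other 8 values lay between -0.06 and 0.07, and the median was -0.03.

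In iBAT, edgeR called 0.00657% of 15212 genes and DESeq2 0.0263%, with 2.47% under an unadjusted p of 0.05. None of the 10 genes was called by either tool, with or without the Hoxa5-/- library that carried Xist and Ddx3y together, and 2 had an unadjusted p under 0.05, Kdr (0.15, SE 0.070) and Cdh5 (0.15, SE 0.070), each with an adjusted p = 0.9999 in edgeR. Car4 was at 49.95, 61.4, 48.8, 57.5 and 53.0 CPM in wt and at 71.2, 41.1, 58.1, 69.1 and 62.3 CPM in mutants (0.16, SE 0.13). Vegfa was at 367.0, 307.3, 375.6, 363.7 and 482.3 CPM in wt and at 417.7, 203.7, 380.9, 431.1 and 401.3 CPM in mutants (-0.05, SE 0.17). Mutant replicate 2 was the lowest for Vegfa and Car4 and the highest for Apln, at 43.5 CPM against 17.8 to 23.8 CPM in the other mutants and 21.7 to 29.7 CPM in wt. Apln was at 0.07 (SE 0.21) with that library and at -0.23 without it. The median over the 10 genes was 0.11, with 9 positive, beside 0.00 over all genes. None of the 15 surface and junction genes was negative, with a median of 0.098 and none called. Markers of other cell types went both ways in the same libraries, again with none called. Of 6 red blood cell genes none was negative (median 0.32), and of 6 skeletal muscle genes all were negative (median -0.65). Their part in the values of the 10 genes was not tested.

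**Figure D5:**
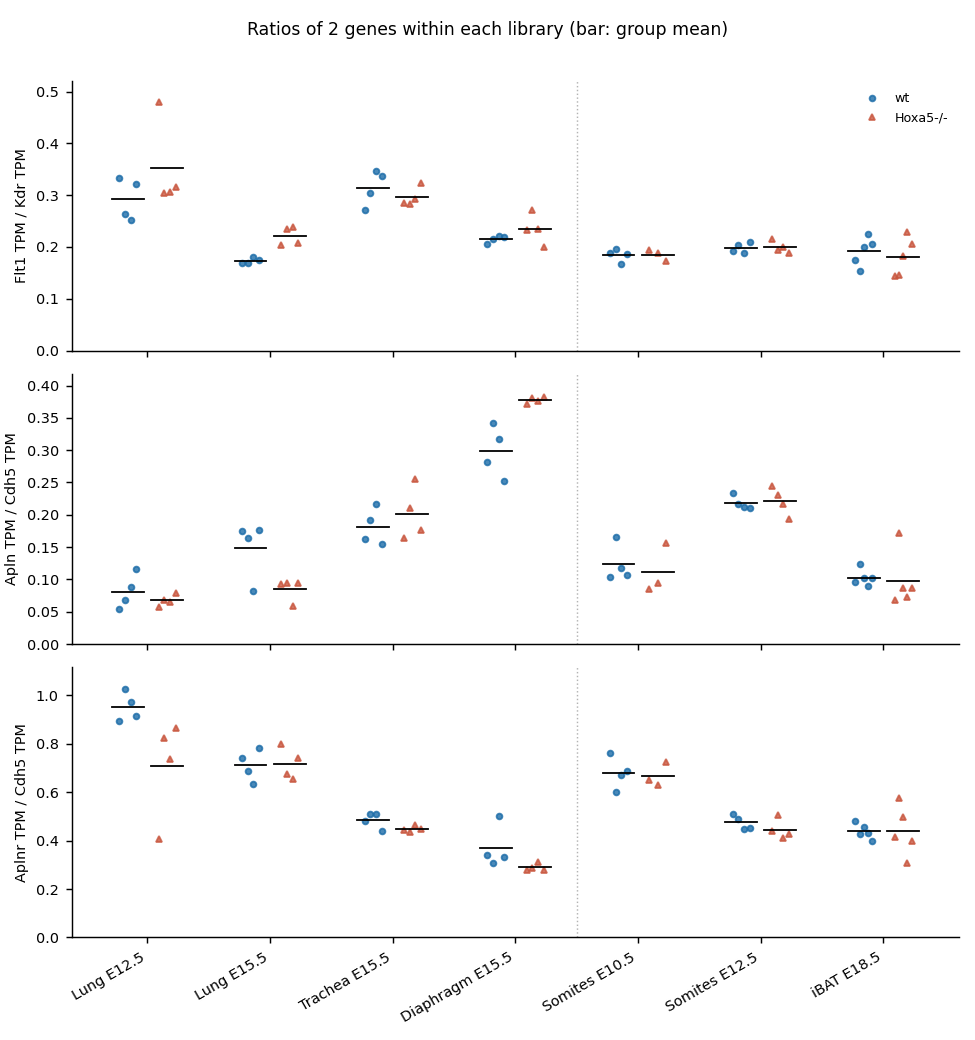
Ratios of Flt1 to Kdr, Apln to Cdh5 and Aplnr to Cdh5 (TPM over TPM in the same library, vertical axes from 0) by context, with wt as circles, Hoxa5-/- as triangles and group means as bars. The Flt1 to Kdr ratio is 0.170 to 0.181 in wt and 0.204 to 0.239 in mutant lungs at E15.5, and the Apln to Cdh5 ratio is 0.372 to 0.381 in mutant diaphragms against 0.252 to 0.342 in wt. The Aplnr to Cdh5 ratio is 0.893 to 1.024 in wt and 0.409 to 0.867 in mutant lungs at E12.5.

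Whether the genotype effect differed between contexts of 1 sequencing set was tested as an interaction, with a call at an adjusted p under 0.05; the comparisons among lung, diaphragm and trachea share libraries. Between diaphragm and lung at E15.5, Apln was called, the log2 fold change being higher in diaphragm by 1.24 (SE 0.25, adjusted p = 0.0332 in edgeR and adjusted p = 0.000378 in DESeq2). It was the only one of 9 genes, against 0.730% of 19463 genes in edgeR, 1.61% in DESeq2 and 8.46% under an unadjusted p of 0.05. The call was lost in edgeR in 12 of 16 fits that left out 1 library each, where the adjusted p-values reached 0.0895, and the difference stayed between 1.13 and 1.41. In the same comparison the lymphatic endothelium list had 2 calls of opposite sign, Lyve1 (1.499, SE 0.25) and Mmrn1 (-1.85, SE 0.33). The capillary list had 1, Ednrb (-1.26, SE 0.21). Neuronal markers were called as well by both tools, with the lower genotype effect in diaphragm. The part of such cells in the Apln difference was not tested. Between lung and trachea, the Apln effect differed by -1.32 (SE 0.29), with an adjusted p = 0.314 in edgeR, which called 0.00502% of 19907 genes and left 5.04% under an unadjusted p of 0.05, and an adjusted p = 0.00952 in DESeq2, which called 0.296%. An unadjusted p under 0.05 in edgeR was found there for 5 of the 9 genes. These were Apln, Emcn (-0.55, SE 0.15), Cdh5 (-0.38, SE 0.11), Pecam1 (-0.40, SE 0.15) and Kdr (-0.24, SE 0.10). Emcn and Cdh5 had adjusted p = 0.559 each in edgeR, Pecam1 0.873 and Kdr 0.962. With the replicate number as a block, since same-numbered wt lung and wt trachea libraries deviated together, edgeR called 19 genes in place of 1 and none of the 9, with Apln at -1.33 (adjusted p = 0.201), Emcn at -0.55 (adjusted p = 0.118) and Cdh5 at -0.39 (adjusted p = 0.185).

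Between the lung stages none of 9 genes was called, against 0.0267% of 18733 genes in edgeR and 0.0961% in DESeq2, and 3 had an unadjusted p under 0.05, as had 5.25% of genes: Apln (-0.79, SE 0.33), Emcn (-0.28, SE 0.12) and Cdh5 (-0.28, SE 0.12), each with an adjusted p = 0.930 in edgeR. So although the Apln values of the 2 stages differ, at -0.42 and -1.22, their difference did not pass. Between the somite stages none of 10 genes was called by either tool, against 0.0147% of 20419 genes in edgeR and 0.0833% in DESeq2. An unadjusted p under 0.05 in edgeR was found for 4 of the 10 and for 14.3% of all genes. Aplnr came nearest (-0.48, SE 0.11, adjusted p = 0.327 in edgeR and adjusted p = 0.0636 in DESeq2), with 0.33 at E10.5 and -0.15 at E12.5. Without wt replicate 3 at E10.5 edgeR called Aplnr (-0.56, adjusted p = 0.00239) and Cdh5 (-0.49, adjusted p = 0.0224). Between diaphragm and trachea none of 9 genes was called by either tool, against 0.439% of 20289 genes in edgeR and 1.86% in DESeq2. An unadjusted p under 0.05 in edgeR was found for 1 of the 9, Aplnr, and for 9.07% of all genes. All 9 differences were negative, Aplnr having the largest (-0.53, SE 0.23). Neuronal markers were called by edgeR there, with the lower genotype effect in diaphragm.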

How the data were processed

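Tissue, stage, genotype and replicate of the 57 libraries came from the sample labels. According to the methods, the authors ran Trim Galore 0.6.5 on the reads, aligned to GRCm39 by STAR 2.7.9a, and counted by featureCounts 2.0.3 against Ensembl 109 with Hox genes curated. The strand setting is not given in the sources used here. The deposited count tables hold whole, unnormalized reads per gene. The authors derived the TPM tables from such reads and exon lengths.

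The members and lists were chosen with earlier results of these data known. A gene was tested where either group averaged 1 TPM or more. Tests ran in R 4.3.3 with edgeR 4.0.16 (TMM, quasi-likelihood) on counts, and with DESeq2 1.42.0 beside it. The SE is the log2 fold change divided by the root of F. TMM-scaled CPM divide counts by library total and TMM factor. Python 3.11.15 gave levels, ratios and plots. The text names the 10 genes, Hoxa5, for each list those called genes that changed most (at most 2 upward and 2 downward), and the 3 genes most like Cdh5, Vegfa and Car4. A few more list genes (Tie1, Icam2, Prox1, Mmrn1, genes called by DESeq2 alone) were picked with their values in view. The testing code was tested on simulated data.

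Same-numbered wt lung and wt trachea libraries at E15.5 deviated together: the 4 correlations of their deviations were 0.118 to 0.472, and each library was most like its own number, although no label ties the numbers to embryos. With the replicate number as a block the count called there stayed 6 of 9. The other alternatives were DESeq2, DESeq2 size factors within edgeR, a filter on counts (minimum 10), no fold minimum, a replicate block or the leading number of the sample name as a block, a joint fit per table, an Xist covariate, and fits lacking each library. DESeq2 fits lacking each library and edgeR fits scaled by library totals without TMM were chosen after seeing the data. No 2 libraries held identical counts. One marker of neurons and the values that rest on it are not reported here.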

Additional observations from a re-analysis of the deposited data

Results flagged for a closer look

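Of 120 gene and group sets with 4 or 5 libraries, 6 held a library far from the others by Dixon's ratio, and chance alone gives about 1 in 20 such sets. Vegfa was at 233.1 TPM in replicate 1 of Hoxa5-/- lung at E12.5, with the next library at 161 TPM; this is the library rich in Hbb-y. Emcn was at 16.4 TPM in replicate 3 of wt diaphragm, the next being 11.6 TPM, and this library is rich in epithelial markers. Apln was at 34.2 TPM in replicate 3 of wt lung at E15.5, the next being 61.3 TPM, and at 36.6 TPM in replicate 2 of Hoxa5-/- iBAT, the next being 18.2 TPM. Aplnr was at 47.7 TPM in replicate 4 of wt trachea, the next being 65.3 TPM. Car4 was at 3.07 TPM in replicate 2 of wt somites at E10.5, the next being 1.73 TPM.

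The genotype effect on Apln differed between diaphragm and lung at E15.5 by 1.24 on the log2 scale (adjusted p = 0.0332, edgeR; lost in 12 of 16 edgeR fits without 1 library each, with adjusted p up to 0.0895), with all 4 mutant lungs below all 4 wt lungs and full overlap in diaphragm.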

How the results depend on the processing

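The count of members called in lung at E15.5, 0 in the edgeR fit by context, was 1 (Apln) under DESeq2, under a replicate block (-1.18, adjusted p = 0.000800, edgeR) and in 1 fit for all libraries of the table (adjusted p = 0.00434), ran from 0 to 1 in edgeR fits without 1 library each (Apln without wt replicate 3, Emcn without Hoxa5-/- replicate 3), and was 1 in all 8 DESeq2 fits of that kind. In diaphragm the count of 0 was 1 (Aplnr) under DESeq2 and in the joint fit (-0.68, adjusted p = 0.00899), and 0 to 1 in DESeq2 without 1 library each. With no fold change minimum, 9 in place of 5 members were called between the wt somite stages and 4 in place of 1 between wt diaphragm and wt trachea. By library totals without TMM, chosen after seeing the data, no count of members called within a context changed, while between wt diaphragm and wt trachea 3 members were called in place of 1, and uncalled values turned sign for Kdr (-0.084), Pecam1 (-0.13) and Aplnr (-0.21) there and for Emcn (-0.19) and Apln (-0.12) between iBAT and somites. For the interactions, the lung and trachea count of 0 in edgeR was 1 under DESeq2 and 1 to 3 in DESeq2 fits without 1 library each (2 without trachea wt replicate 1 or 3 or lung wt replicate 4, and 3 without lung Hoxa5-/- replicate 3), and in edgeR fits without 1 library each the diaphragm and lung count of 1 ran from 0 to 1 and the somite count of 0 from 0 to 2. Signs turned for 5 other uncalled values: without 1 library each, Flt1 ran from -0.092 to 0.28 in lung at E12.5, Vegfa from -0.084 to 0.13 in lung at E15.5 (0.13 also in DESeq2), Apln from -0.23 to 0.17 in iBAT, Vegfa from -0.14 to 0.19 between wt lung stages, and Flt1 from -0.17 to 0.20 between the genotype effects of the lung stages. The cause of these changes was not tested. The replicate numbers were not taken to pair the genotypes, since in no context did all same-numbered libraries deviate together with r over 0.1, and in none was every library most like its own number (at most 3 of 4 in diaphragm and 4 of 5 in iBAT). In iBAT, same-numbered wt and Hoxa5-/- libraries also share the leading number of their sample names, whose meaning the labels do not give, and 4 of 5 pairs had r over 0.1, the lowest being 0.072. With the replicate number or that leading number as a block, 0 members and 2 genes were called in iBAT, against 0 and 1 without. The block called 104 genes in lung at E15.5 and 358 in diaphragm, against 22 and 107 without it. DESeq2 called 52, 81, 83, 406, 18, 2 and 4 genes in trachea, E12.5 lung, E15.5 lung, diaphragm, E10.5 somites, E12.5 somites and iBAT, where edgeR called 3, 14, 22, 107, 4, 1 and 1. P-values set differences against the spread between libraries, of which each group had only 3 to 5. Car4, with under 50 reads a library outside iBAT, could not be tested in most contexts.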
